A study of Mus musculus with 8 samples.

Results

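The proteasome genes described here were those listed on the array as Psma, Psmb, Psmc, Psmd or Psme followed by a number, with the immune forms Psmb8 and Psmb9 left out. They made up 39 of 27962 gene names, were read by 57 of 41174 gene probes and fell into 16 genes of the 20S core (Psma and Psmb), 20 of the 19S cap (Psmc and Psmd) and 3 activators (Psme). The genes were picked by name and not by a measured difference between treatments, though earlier results of these data were known at the time. Each gene was represented by its brightest probe.

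RNA came from areas cut by laser from the right testis of adult male C57BL/6J mice. The DEHP group, 4 mice, received di-(2-ethylhexyl) phthalate, a plasticiser, at 200 mg/kg/day in corn oil by gavage for 21 days, and the vehicle group, also 4 mice, received corn oil alone. Mice were 18 weeks old at the start and 21 weeks old at the end. RNA from 1 cap per mouse was amplified and hybridised on 8 Agilent 2-colour arrays, with each DEHP mouse set against 1 vehicle mouse on 2 arrays of opposite dye orientation. The tissue label names Sertoli-cell-rich areas in the intermediate layer of the tubule epithelium, whereas the protocol text names Leydig cells as the cells captured. Each pair carries the number of its DEHP mouse. The vehicle partner was mouse 2 in pair 1, mouse 3 in pair 2, mouse 4 in pair 3 and mouse 1 in pair 4.

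The proteasome is the large protease that degrades proteins tagged with ubiquitin. Its 20S core is a barrel of alpha (Psma) and beta (Psmb) rings with the cutting sites inside, and its 19S cap recognises, unfolds and feeds in the tagged protein. In the testis a germ cell form carries the alpha subunit Psma8, and the activator Psme4 (PA200) is known for its part in histone removal during sperm formation.

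The probes for the catalytic beta subunits and for the ubiquitin receptor are shown because the readings of these genes rest on them. Each has 60 bases, written 5′ to 3′ as in the array files, and each is annotated to its gene by the array design, in build mm7. The Psmb5 probe lies at chr14:49480764-49480823 on the minus strand and the Psmb6 probe at chr11:70609086-70609145 on the plus strand. The Psmb7 probe spans 20420 bases of the genome at chr2:38620757-38641176 on the minus strand and the Psmd4 probe 599 bases at chr3:94907958-94908556 on the minus strand, so each of these joins separate stretches of the gene. Of the 57 probes of proteasome genes, 22 spanned over 100 bases in this way.
Psmb5: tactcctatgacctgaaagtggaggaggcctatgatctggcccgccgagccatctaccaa
Psmb6: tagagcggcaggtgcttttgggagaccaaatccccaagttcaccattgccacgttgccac
Psmb7: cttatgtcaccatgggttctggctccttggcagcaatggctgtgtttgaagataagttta
Psmd4: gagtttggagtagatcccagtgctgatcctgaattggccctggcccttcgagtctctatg

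Proteasome transcripts were measured well in both groups. Of their 57 probes, 52 (91.2%) were well above background in all 16 channels, against 18422 of 41174 gene probes (44.7%). A probe was tested if 4 or more of the 8 channels of either treatment read it well above background, which left 38 of the 39 genes and 22975 probes in all. The gene left out was Psmd13, a lid subunit of the cap, whose only probe was not well above background in any channel. The 39 genes lay on 16 chromosomes, with 8 on chromosome 11 and 5 on chromosome 2.

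Among the cell type markers, 14 of 15 Sertoli genes were measured, and Gata4 did not pass the filter. Their summed log2 level was 15.12 to 15.61 in DEHP mice and 14.93 to 15.49 in vehicle mice. All 8 round spermatid and all 8 elongating spermatid markers were measured as well, so markers of germ cells were read alongside those of Sertoli cells. For round spermatid markers the summed level was 16.6 to 16.91 in DEHP mice and 16.6 to 17.16 in vehicle mice, and for elongating spermatid markers it was 18.93 to 19.46 in DEHP mice and 18.85 to 19.37 in vehicle mice. Of 7 Leydig markers 3 were measured (Cyp17a1, Insl3 and Star), with a summed level of 11.46 to 13.41 in DEHP mice and 11.5 to 13.38 in vehicle mice. In such tissue pieces fewer cells of a type and less RNA per cell cannot be told apart.

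None of the proteasome genes differed between DEHP and vehicle past the adjusted threshold. Over all probes 0 of 22975 (0%) had an adjusted p under 0.05 in limma, with a smallest adjusted p of 0.902, while 527 probes (2.29%) were higher and 526 (2.29%) lower at an unadjusted p under 0.05. Of the 38 proteasome genes 2 were higher at that unadjusted level, Psmb4 and Psmb6, and 0 were lower. The mean log2 ratio of DEHP over vehicle was positive for 21 of 38 genes (55.3%), against 48.9% of all probes. Its median was 0.0085 over the proteasome genes and -0.0021 over all probes. The 95% confidence interval of every one of the 38 genes lay within a 2-fold change in either direction. An offset added to every intensity pulls the ratios of dim probes towards 0, so the intervals of dim members may be too narrow. Among these were Psma3, Psmb2, Psmb7 and Psmd9, at a mean log2 intensity of 7.59, 7.64, 7.88 and 7.99. By the ratios of the scanner software their means were 0.061, -0.21, -0.070 and 0.091, against 0.0060, -0.11, -0.031 and 0.10 here.

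The direction was the same in all 4 pairs for few genes. By the brightest probe Psma5, Psmb1, Psmb6, Psmc4 and Psmd9 were higher in every pair, 5 of 38 (13.2%) against 6.57% of all probes. None was lower in every pair by that probe, against 7.08% of all probes. Dimmer measured probes of Psmd9 (mean -0.020) and Psmd7 (mean -0.21) were lower in every pair. The mean of Psma5 and that of Psmd9 took the other sign with DEHP in Cy5 only (-0.033 and -0.030), and that of Psmb1 was 0.0034 there, against 0.26 with DEHP in Cy3 only. The mean of Psmc4 was -0.061 in the authors' deposited table, against 0.18 by the ratios of the scanner software. The deposited table holds fewer probes, so its value may come from the dimmer Psmc4 probe. No proteasome gene separated the 4 DEHP mice from the 4 vehicle mice. Of all probes 0.763% lay above and 1.04% below without overlap, shares too small for this to set 38 genes apart. The share of positive means depended on the scaling within arrays: with median centring in place of loess it was 30 of 38 genes, while the median over all probes was 0.012.

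**Figure D1:**
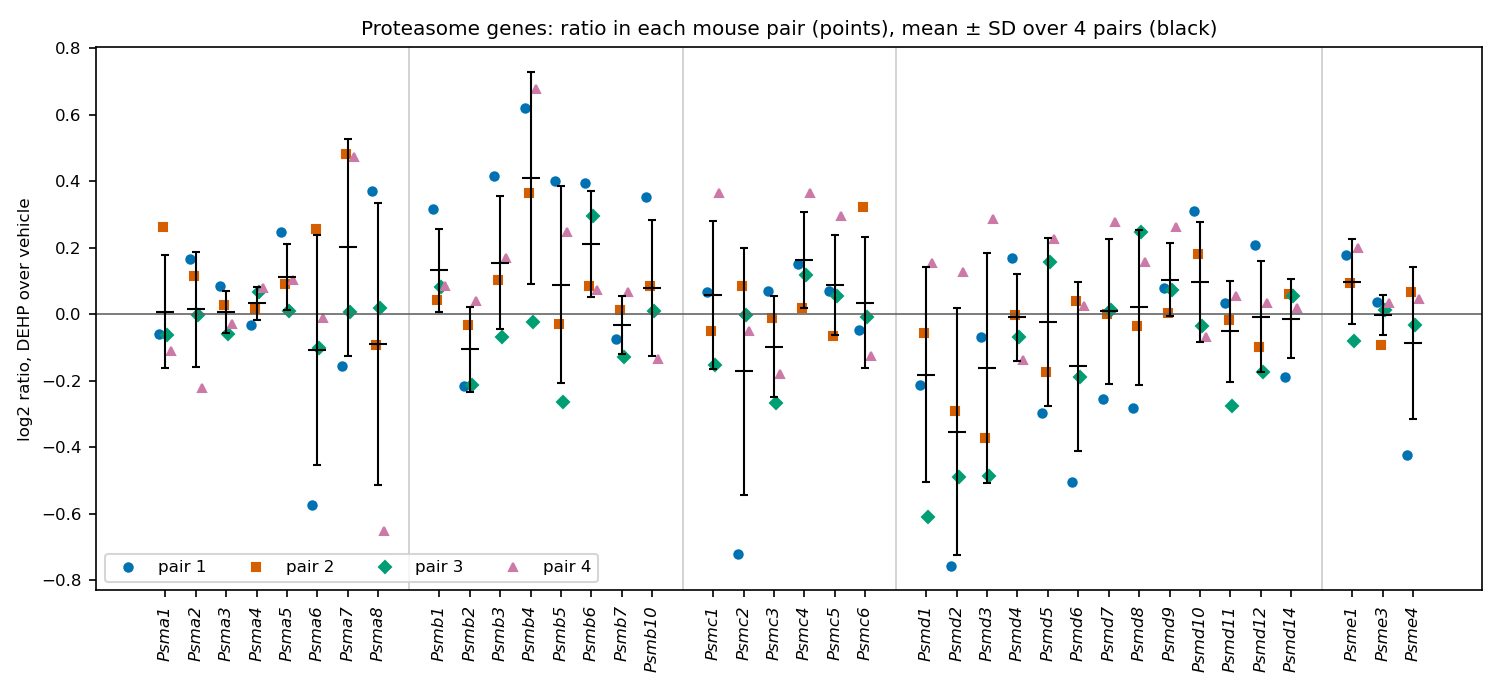
Log2 ratio of DEHP over vehicle (vertical axis) of the 38 measured proteasome genes (horizontal axis, grouped as Psma, Psmb, Psmc, Psmd and Psme), one point per mouse pair, with the mean and SD over 4 pairs in black. The means run between -0.35 for Psmd2 and 0.41 for Psmb4, and most error bars cross 0.

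The beta ring carries the cutting sites. Over its 8 measured genes the median log2 ratio was 0.11, with 6 above 0, and the pair medians were 0.37, 0.064, -0.045 and 0.079 in pairs 1 to 4. Pair 1 was far above the others. The median of these 8 genes was 0.011 on the arrays with DEHP in Cy5, against 0.22 on those with DEHP in Cy3.

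Psmb4, a structural beta subunit, had the largest mean of all members. Its log2 intensity was 14.79, 14.73, 14.38 and 15.02 in DEHP mice 1 to 4, against 14.34, 14.17, 14.37 and 14.40 in vehicle mice 1 to 4. DEHP mouse 3 lay among the vehicle mice and the other three DEHP mice lay above all of them. The mean log2 ratio was 0.41 ± 0.32 (SD, n = 4 pairs; 95% interval 0.075 to 0.75), with an unadjusted p of 0.0256 and an adjusted p of 0.902 in limma.

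Psmb6, the subunit with caspase-like activity, was higher in all 4 pairs. Its log2 intensity was 14.88, 14.83, 14.80 and 14.62 in DEHP mice, against 14.54, 14.48, 14.74 and 14.50 in vehicle mice. DEHP mouse 4 fell below vehicle mouse 3, so the groups overlapped. The mean log2 ratio was 0.21 ± 0.16 (SD, n = 4 pairs), with an unadjusted p of 0.0337 and an adjusted p of 0.902 in limma.

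The other catalytic subunits gave smaller means. Psmb5, with chymotrypsin-like activity, had a log2 intensity of 11.74, 11.40, 11.10 and 11.37 in DEHP mice and 11.12, 11.34, 11.43 and 11.36 in vehicle mice. DEHP mouse 1 was the highest and DEHP mouse 3 the lowest of the 8, and the mean ratio was 0.089 ± 0.30 (SD, n = 4 pairs). Psmb7, with trypsin-like activity, had 7.94, 7.85, 7.72 and 7.97 in DEHP mice and 7.90, 8.01, 7.83 and 7.85 in vehicle mice. The groups overlapped, and its mean ratio was -0.031 ± 0.088 (SD, n = 4 pairs). At this low intensity the offset pulls ratios towards 0.

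Psmb1, a structural subunit, was 8.89, 8.62, 8.69 and 8.76 in DEHP mice, against 8.67, 8.57, 8.58 and 8.61 in vehicle mice. DEHP mouse 1 was the highest and the mean ratio was 0.13 ± 0.13 (SD, n = 4 pairs), and that of Psmb3 was 0.16 ± 0.20. Without pair 1 the mean ratio was 0.070 for Psmb1 and 0.068 for Psmb3. The 2 probes of Psmb3 gave 0.16 each. Psmb2 had -0.11 ± 0.13, lower in pairs 1, 2 and 3. Psmb10, the inducible form that can replace Psmb7, had 0.079 ± 0.20, and its ratio minus that of Psmb7 was 0.43, 0.074, 0.14 and -0.20 in pairs 1 to 4.

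The alpha ring forms the gate of the core. Over its 8 genes the median log2 ratio was 0.011, with 6 above 0, and the pair medians were 0.026, 0.10, 0.0030 and -0.021. Psma1, Psma2, Psma3 and Psma4 had means between 0.0060 and 0.033.

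Psma5 was higher in all 4 pairs. Its log2 intensity was 14.17, 14.25, 14.08 and 14.00 in DEHP mice, against 13.90, 13.92, 14.16 and 14.07 in vehicle mice, so 2 of the vehicle mice lay within the DEHP range. Its mean ratio was 0.11 ± 0.099 (SD, n = 4 pairs), and 0.068 without pair 1. Psma6 varied more, with 11.18, 11.89, 11.52 and 11.62 in DEHP mice and 11.63, 11.76, 11.64 and 11.63 in vehicle mice. DEHP mouse 1 was the lowest and DEHP mouse 2 the highest of all 8, and the mean ratio was -0.11 ± 0.35 (SD, n = 4 pairs).

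Psma8 and Psma7 are alternative subunits of the same position in the ring, Psma8 being the germ cell form. Psma8 had a log2 intensity of 13.96, 13.69, 13.84 and 13.41 in DEHP mice, against 14.06, 13.59, 13.78 and 13.82 in vehicle mice. Its pair ratios were 0.37, -0.092, 0.018 and -0.65, with a mean of -0.089 ± 0.42 (SD, n = 4 pairs). This was the largest spread of any member by the brightest probe, while a dimmer Psmd7 probe had an SD of 0.57. Psma7 had 12.47, 12.61, 12.34 and 13.12 in DEHP mice and 12.64, 12.62, 12.13 and 12.33 in vehicle mice, with pair ratios of -0.16, 0.48, 0.0073 and 0.47.

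The ratio of Psma8 minus that of Psma7 was 0.53, -0.57, 0.011 and -1.13 in pairs 1 to 4, a mean of -0.29 ± 0.72. The sign was not the same across pairs. The round spermatid markers had pair medians of 0.18, 0.18, -0.25 and -0.28, and the elongating spermatid markers had -0.33, 0.11, 0.15 and 0.30. The spermatocyte markers had -0.0093, 0.091, -0.012 and 0.0011. These medians hide wide and unlike ratios of single spermatocyte markers. Piwil1 had 0.98, 0.091, 0.13 and -1.02, and Sycp1 had 0.25, 0.15, -0.44 and -0.98. Spo11 went another way, with -0.0093, -0.092, 0.66 and 0.22. The part of germ cell markers in the Psma8 values was not tested.

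**Figure D2:**
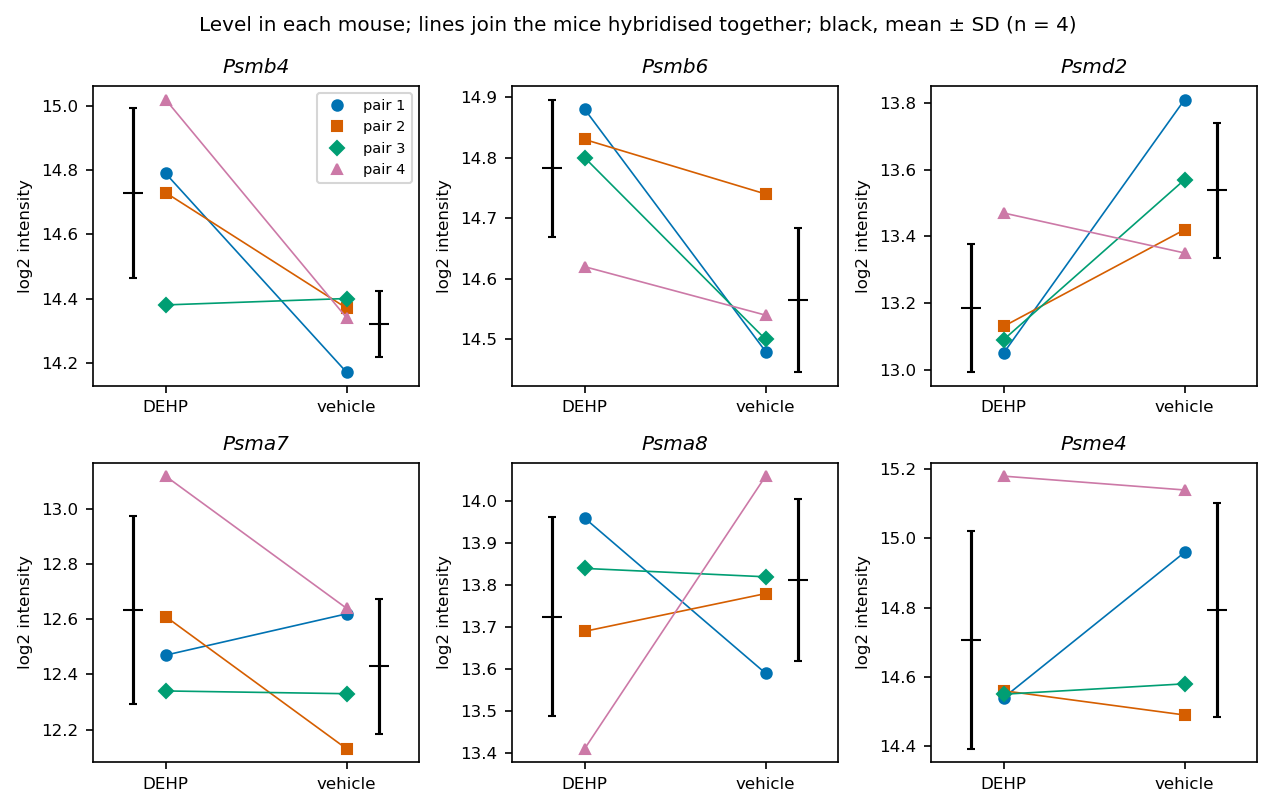
Log2 intensity (vertical axes, a separate scale for each gene) of 6 proteasome genes in each DEHP and each vehicle mouse, with lines joining the mice hybridised together and the mean ± SD of 4 mice in black. The lines of Psmb6 all fall towards vehicle, while those of Psma8 cross.

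The 19S cap had a median log2 ratio of -0.0095 over 19 measured genes, with 8 above 0. Its base holds the 6 ATPases (Psmc), which unfold the substrate and thread it into the core, and their median was 0.046, with 4 above 0. Psmc4 was 10.21, 9.96, 10.13 and 10.10 in DEHP mice, against 9.74, 10.06, 9.94 and 10.01 in vehicle mice. DEHP mouse 2 fell below vehicle mice 2 and 4, and the mean ratio of 0.16 ± 0.15 (SD, n = 4 pairs) had an unadjusted p of 0.0636 and an adjusted p of 0.902 in limma. Without pair 4 the mean ratio of Psmc4 was 0.096, and its second probe gave -0.021. Psmc1, Psmc5 and Psmc6 had means between 0.035 and 0.089, while Psmc3 had -0.097 ± 0.15 and Psmc2 -0.17 ± 0.37.

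The non-ATPase subunits (Psmd) had a median of -0.013, with 4 of 13 measured genes above 0. In pair 4 11 of the 13 were above 0, and in pairs 1, 2 and 3 the numbers were 5, 4 and 5. Psmd2 and Psmd1 are the large scaffold subunits of the base. Psmd2 had 13.05, 13.13, 13.09 and 13.47 in DEHP mice, against 13.35, 13.81, 13.42 and 13.57 in vehicle mice.

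For Psmd2 3 of 4 DEHP mice lay below all vehicle mice and DEHP mouse 4 lay among them. Its mean ratio was -0.35 ± 0.37 (SD, n = 4 pairs), the lowest of all members, with an unadjusted p of 0.0654 and an adjusted p of 0.902 in limma. The second Psmd2 probe, also above background in all channels, gave a mean of 0.000064 with an SD of 0.042 at a mean log2 intensity of 7.39, where the offset of 50 added to every intensity pulls ratios towards 0. Without pair 1 the mean ratio of Psmd2 was -0.22. Psmd1 had -0.18 ± 0.32, with pair 3 at -0.61.

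Psmd4, a ubiquitin receptor, was 8.88, 8.73, 8.57 and 8.67 in DEHP mice, against 8.80, 8.71, 8.73 and 8.64 in vehicle mice. The groups overlapped, with a mean ratio of -0.0095 ± 0.13, and the second probe of the gene gave 0.16 ± 0.14 (SD, n = 4 pairs each). Psmd14, the deubiquitinase of the lid, was 11.29, 11.39, 11.36 and 11.34 in DEHP mice, against 11.32, 11.48, 11.32 and 11.31 in vehicle mice. Its values in all 8 mice lay close together, with a mean ratio of -0.013 ± 0.12 (SD, n = 4 pairs).

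Of the remaining lid subunits, Psmd3 had -0.16 ± 0.35 and Psmd6 -0.16 ± 0.25, and Psmd7, Psmd8, Psmd11 and Psmd12 had means between -0.052 and 0.022. Psmd5, Psmd9 and Psmd10 are chaperones that assemble the base and are not part of the finished particle. They had -0.022 ± 0.25, 0.10 ± 0.11 and 0.097 ± 0.18.

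The activators dock on the core in place of the cap. Psme4 had a log2 intensity of 14.54, 14.56, 14.55 and 15.18 in DEHP mice, against 15.14, 14.96, 14.49 and 14.58 in vehicle mice. DEHP mouse 4 and its partner vehicle mouse 1 were both the highest of their groups. The mean ratio was -0.085 ± 0.23 (SD, n = 4 pairs), and the other two measured Psme4 probes gave -0.12 and 0.0010. Psme1, a subunit of the interferon-inducible 11S activator, had 0.098 ± 0.13 and Psme3, its nuclear relative, -0.0028 ± 0.060.

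Core and cap were set against each other within each pair. The median of the 16 core genes was 0.056, with 12 above 0 (against 48.9% of all probes), and that of the 19 cap genes was -0.0095. The core minus cap difference was 0.26, 0.097, 0.024 and -0.057 in pairs 1 to 4, with a mean of 0.080 ± 0.13 (SD, n = 4 pairs). It was positive in 3 of 4 pairs and smaller than its spread. Without pair 1 the difference of the core and cap medians was 0.013, and without pair 4 it was 0.14, against 0.065 with all pairs.

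Both groups of genes had higher medians with DEHP in Cy3 than with DEHP in Cy5. With DEHP in Cy5 the core median was 0.011, the cap median -0.13 and the median of all probes 0.0082. With DEHP in Cy3 the core median was 0.14, the cap median 0.026 and the median of all probes -0.011. The difference of core minus cap was 0.14 in the first orientation and 0.11 in the second. All arrays of an orientation lay on 1 slide, so slide and orientation cannot be told apart. Of the 38 genes, 21 had means of opposite sign in the 2 orientations. The share over all probes was not computed, so this count does not set the proteasome genes apart.

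**Figure D3:**
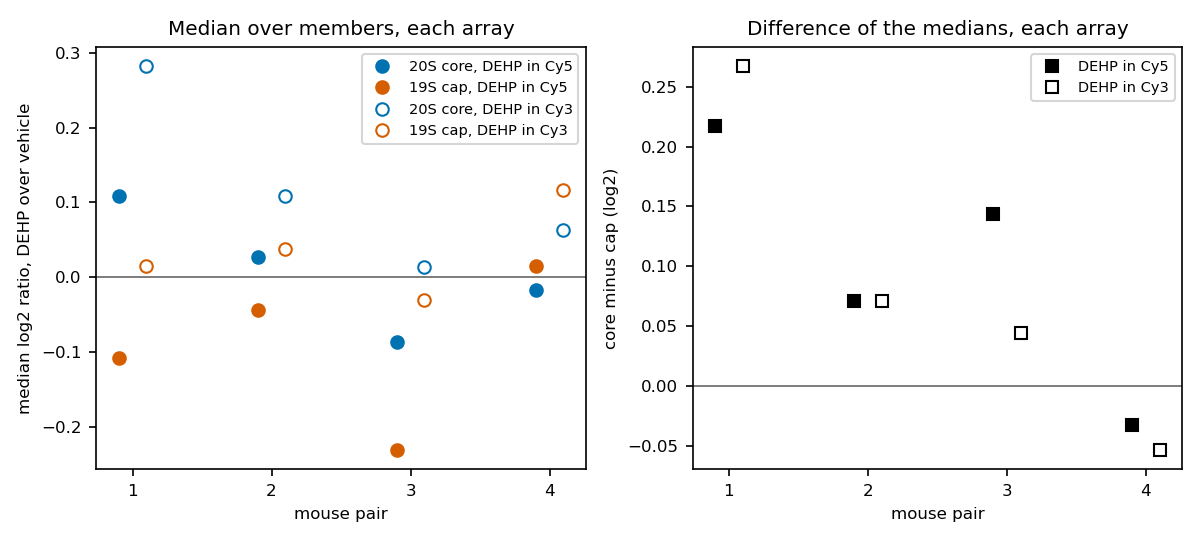
Median log2 ratio of DEHP over vehicle of the 20S core and 19S cap genes on each of the 8 arrays (left) and the core minus cap difference (right), by mouse pair, with filled symbols for DEHP in Cy5 and open symbols for DEHP in Cy3. The difference runs between -0.053 and 0.27, and only the arrays of pair 4 fall below 0.

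The median SD over pairs was 0.18 for proteasome genes and 0.15 for all probes. The error of a pair mean was taken from the disagreement of its dye-swapped arrays, after removing the constant dye offset of each probe, which cancels in the mean. Its median was 0.045 for proteasome genes and 0.046 for all probes. The SD over pairs holds this error as well as the differences between mice. It also holds differences between caps in the cells captured, and in amplification where the dye-swapped arrays shared it. These cannot be told apart from differences between mice. Psma8, Psma6, Psmd1 and Psmb4 had SDs of 0.42, 0.35, 0.32 and 0.32, with errors of 0.030, 0.039, 0.022 and 0.057. The other genes with an SD over 0.3 were Psmd2, Psmc2, Psmd3 and Psma7, at 0.37, 0.37, 0.35 and 0.33. Their errors were 0.038, 0.055, 0.055 and 0.042.

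**Figure D4:**
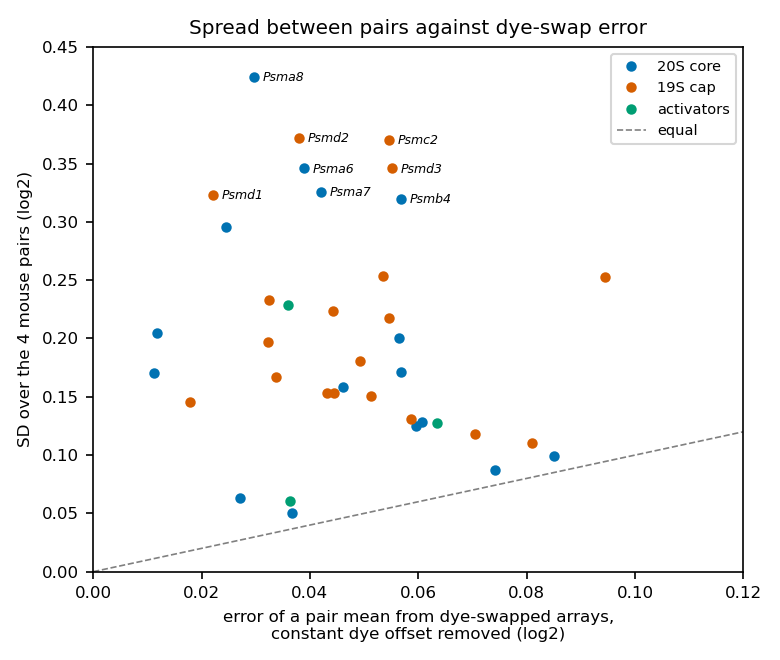
SD of the log2 ratio over the 4 mouse pairs (vertical axis) against the error of a pair mean estimated from dye-swapped arrays with the constant dye offset removed (horizontal axis, on a wider scale) for the 38 measured proteasome genes, coloured by class, with the line of equality. Psma8 is highest at 0.42, and genes with an SD over 0.3 are named.

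Of 13 genes with more than 1 measured probe 9 had means on both sides of 0: Psmc2, Psmc4, Psmc6, Psmd2, Psmd4, Psmd7, Psmd9, Psmd12 and Psme4. In 7 of these 9 the mean on one side of 0 was under 0.02 in size, the others being Psmc4 and Psmd7, with means of -0.021 and 0.16 for Psmc4 and of -0.21 to 0.022 for Psmd7. The second Psmc2 probe, at 0.0036, was well above background in only 4 of 8 channels of each treatment. Psma4, Psmb3, Psmc5 and Psmd11 had 1 sign.

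The other genes of the pathway, 34 chaperones, ubiquitin receptors, deubiquitinases, ubiquitin genes and transcription factors, gave no call. Of the 31 measured, 15 had a mean above 0, against 48.9% of all probes, and their median was -0.0065. At an unadjusted p under 0.05 in limma there were 0 of 31, against 2.29% of all probes higher and 2.29% lower. These shares are too small for this to set 31 genes apart. Psmg1 (listed as Dscr2), a chaperone of alpha ring assembly, had the highest mean at 0.23 ± 0.26, and Pomp, which helps the beta ring close, had 0.17 ± 0.17 (SD, n = 4 pairs each). Nfe2l1, the transcription factor known to raise proteasome genes when the protease is blocked, is named after its values were seen and had 0.16 ± 0.23. The other genes listed with it had means of -0.14 (Nfe2l2), -0.082 (Keap1), -0.082 (Ngly1) and 0.0010 (Ddi2).

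The core of the antioxidant response element, TGANNNNGC, the site bound by Nfe2l1 and its relatives, was searched on both strands of the RefSeq promoter windows, 250 bases before to 50 after the start in GRCm38.p6. It was found in 17 of the 32 proteasome genes with a window (53.1%) and in 45% of all 27025 genes with one. Core genes held it in 8 of 12 (66.7%) and cap genes in 8 of 17 (47.1%). It was in 10 of 19 genes with a positive mean ratio (52.6%) and in 6 of 12 with a negative one (50%). The windows round a match in Psmb5 (1 of 2 in its window, the one upstream of the start, positions -47 to -39 from the start), at chr14:54618018-54618058 on the minus strand, and in Psmb6 (positions -9 to -1), at chr11:70525332-70525366 on the plus strand, are shown with the motif in capitals; both genes code for catalytic subunits. Psmb7, the remaining one, had no window.
Psmb5: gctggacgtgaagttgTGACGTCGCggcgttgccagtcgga
Psmb6: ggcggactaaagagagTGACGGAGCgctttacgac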

How the data were processed

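Per the file headers, the scanner files hold a mean foreground intensity and a median local background intensity for every spot, read by version 9.5.1.1 of Agilent Feature Extraction, and a log10 ratio of Cy5 over Cy3 from its processed signals. The authors' deposited table of log2 ratios was matched by spot order and found to run as DEHP over vehicle by comparison with the scanner values. The submitters' processing notes name limma, and the background correction and filter behind the table are not given in the sources used here.

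Here the background was corrected by normexp (offset 50), followed by loess within each array with control spots at weight 0 and averaging of a probe's spots. Ratios were signed as DEHP over vehicle. The labels pair the mice, and the 2 dye-swapped arrays of a pair were averaged, leaving 4 independent values; these arrays correlated across probes by 0.54 to 0.72. An intercept was fitted to all 22975 kept probes with limma 3.58.1 in R 4.3.3, 2-sided with Benjamini-Hochberg adjustment; 25 of them lacked a pair. Levels per mouse are means of its Cy5 and Cy3 channels after Aquantile scaling. Saturated spots numbered 0 per array, and 49.8% to 59.5% of spots per channel were well above background. The number of mouse pairs, 4, limits the precision.

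Members and lists were chosen with earlier results of these data known, so no test was made over a list. Values in every mouse are given for the 6 members with the smallest unadjusted p, the 3 with the widest range over pairs, 7 chosen by role, and Psma7, which was added after its values were seen. Alternatives covered background, normalisation, filter, pairing, dye, weights, variance model, probe choice, each pair left out and the authors' table.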

Additional observations from a re-analysis of the deposited data

Results flagged for a closer look

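In 3 of 42 sets of 4 pair values, 1 pair stood far from the other three (chance flags about 1 in 20 sets). Psmc2, an ATPase of the base, had a log2 ratio of -0.72 in pair 1, and the other pairs lay between -0.050 and 0.086. Psmb1, a structural beta subunit, had 0.32 in pair 1, with the others between 0.043 and 0.085. Psma1, of the alpha ring, had 0.26 in pair 2, with the others between -0.11 and -0.058.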

How the results depend on the processing

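No probe passed the adjusted threshold under any setting tried (0 calls, 497 to 2425 at an unadjusted p under 0.05, smallest adjusted p 0.443 with DEHP in Cy3 only). With the mouse pair as a replicate block the medians were 0.0085 for all proteasome genes, 0.056 for the core and -0.0095 for the cap. They equal those without the block by construction, since every pair has 2 arrays. The block changed no call. With median centring the median was 0.11 over all members, 0.10 for the cap and 0.10 for the activators. With DEHP in Cy5 only the cap median was -0.13, and with DEHP in Cy3 only the median was 0.066 over all members and 0.084 for the activators; the cause was not tested. Leaving out 1 pair in turn gave 0.017 to 0.028 over all members, 0.039 to 0.096 for the core, -0.044 to 0.026 for the cap, -0.015 to 0.027 for the activators and 0.013 to 0.14 for core minus cap, with 0 calls. Of the 38 genes, 12, among them Psmb4, Psmb6 and Psmd2, kept their sign under every setting that gave them a value, of 18 in all, and 26 took the other sign in at least 1. Some of these settings, such as the replicate block and the variance model, leave a mean ratio unchanged by construction and could not change a sign. The authors' table held 33 of the genes, without Psma5, Psmb4, Psmb6, Psmb10 and Psmc2.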
